A study of Rattus norvegicus with 44 samples.

Results

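The genes described here are the protein-coding genes whose mean level in wild-type rat kidney cortex was higher at postnatal day 15 than at days 0 and 21. They were chosen from the wild-type group means alone. A member had a mean of at least 5 FPKM (fragments scaled for gene length and for library size, here with library sizes that carry size factors) at day 15, and that mean was at least 1.5 times both the day 0 mean and the day 21 mean. 96 of 22293 protein-coding genes, in a table of 32545 genes, met this rule. Kidney cortex was taken from male rats at postnatal days (PND) 0, 5, 15 and 21, 1 poly-A RNA library per animal. Animals were labelled WT, Het or Homo for genotype, and the series concerns xanthine dehydrogenase (Xdh), the enzyme that makes uric acid. The groups held 4 WT, 3 Het and 4 Homo libraries at PND0, 3, 4 and 4 at PND5, 4 of each at PND15, and 3, 4 and 3 at PND21. The strain, the kind of Xdh allele and any treatment were not stated in the labels. Whole litters were collected, so animals of 1 age can be littermates, and the labels do not tell which. Replicate numbers only name libraries.

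The rat kidney is immature at birth. Nephrons go on forming in the first days of life, and tubules then elongate and take up adult transport and metabolism while the pup changes from milk to solid food. Milk is rich in fat, and suckling pups make and use ketone bodies. Urine concentration matures in the same weeks, with urea transporters in the medulla and organic osmolytes such as sorbitol protecting its cells.

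Reads counted per library ranged from 12686228 to 23329418. Xdh stood far above the other PND0 libraries in 3 of them, 2 of which carry the Homo label. It was at 26.8 FPKM in the library labelled PND0_Het replicate 2, and at 11.7 and 22.5 FPKM in those labelled PND0_Homo replicates 3 and 4, while the other 8 PND0 libraries lay between 0.649 and 3.78 FPKM. At PND5 and at PND15 the Xdh level of every library labelled Homo was below that of every library labelled Het, at 0.316 to 1.09 against 1.84 to 3.59 FPKM and at 2.87 to 8.03 against 8.95 to 13.2. At PND21 the levels overlapped, at 13.5 to 18.0 FPKM in Homo and 9.70 to 17.9 in Het, with a higher mean in Homo (16.0 against 13.2), while WT was at 22.3 to 25.4. PND15_Het replicate 2 also stood apart from its group in many members: 33 were at least 2 times, and 21 at most 0.5 times, the median of the other 3 PND15_Het libraries. Other PND15 libraries were uneven too. In PND15_WT replicate 3, 26 members were at least 2 times that median of their group, and in PND15_Homo replicate 4, 21 were. In PND15_WT replicates 1 and 2, 21 and 19 were at most 0.5 times it. No share over all genes stands beside these counts. As alternatives, the tests were repeated without the 3 PND0 libraries, and without these 3 and PND15_Het replicate 2, 4 libraries in all. The other uneven PND15 libraries were kept in both fits. The kidney genes Lrp2, Umod, Nphs1, Slc5a2 and Aqp2 were at 8.77 FPKM or more in every library. This shows kidney and cannot show that a sample held cortex alone. Summed adrenal genes were at 425 FPKM in PND5_Het replicate 2, where the group median was 45.3. Uroplakins summed to 374 in PND0_Het replicate 3 (group median 29.1), and fat genes without Pck1 to 664 in PND5_Het replicate 1 (group median 261). The part of such tissue in the results was not tested. In such bulk samples, fewer cells of a type and less RNA per cell cannot be told apart.

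In WT, the members' median ratio was 2.14 for PND15 over PND0, 1.71 over PND5 and 1.85 over PND21. These ratios were used by the rule, except that over PND5, and carry no test. The rule asked nothing of PND5, and 7 members had a higher WT mean there: Nrep, Nefl, Pdgfa, Dusp2, Wbp1, Hacd4 and LOC100911363. Just inside the level threshold lay Atp5f1 at 5.05 FPKM and Pou2af1 at 5.16, and just outside lay Sptssb at 4.93 and Adamtsl1 at 4.92. On the ratio to PND0, LOC100911365 at 1.501 was inside and Rnf43 at 1.49 outside, and on the ratio to PND21, Ackr3 at 1.504 was inside and Gbp2 at 1.48 outside.

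The 4 WT libraries at PND15 did not contribute equally. In 45 members each PND15_WT library was above every PND0_WT and PND21_WT library, and in 52 the highest of the 4 was at most 2 times the lowest. In 18 it was at least 10 times the lowest. The rule chose the members on means of these WT groups, so these counts are a description and no check. No share over all genes stands beside them. Replicate 3 was the highest library in 52 members, and without it 39 members no longer met the rule, against 20, 11 and 8 without replicates 4, 1 and 2. 34 members met the rule whichever 1 WT library was left out. All 96 members had at least 1 FPKM in 3 or more libraries outside PND15_WT, so none entered the tests through the group that chose it.

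Of the members, 58 matched an entry of the RefSeq table of promoters (build GRCr8, 250 bases before to 50 after the start), 3 of them through a newer symbol. The 150 bases before the start are shown for 4 members that stand for different groups below: Cyr61, which was higher in Homo than in Het, Ucp1, whose level differed widely between libraries of 1 group, and Nptx2 and Eci1, whose mean was highest at day 15 in Het and in Homo. Capitals mark TATAAA in Cyr61 and Ucp1, CCAAT in Nptx2 and, on the opposite strand, AGGTCA in Eci1.
Cyr61 (chr2:237225690-237225839, reverse strand): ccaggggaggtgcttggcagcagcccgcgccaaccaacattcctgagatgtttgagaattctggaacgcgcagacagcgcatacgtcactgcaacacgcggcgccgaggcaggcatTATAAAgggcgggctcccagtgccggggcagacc
Ucp1 (chr19:41721422-41721571, reverse strand): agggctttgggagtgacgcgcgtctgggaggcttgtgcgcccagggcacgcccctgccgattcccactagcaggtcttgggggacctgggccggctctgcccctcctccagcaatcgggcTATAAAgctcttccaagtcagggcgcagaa
Nptx2 (chr12:15162046-15162195, reverse strand): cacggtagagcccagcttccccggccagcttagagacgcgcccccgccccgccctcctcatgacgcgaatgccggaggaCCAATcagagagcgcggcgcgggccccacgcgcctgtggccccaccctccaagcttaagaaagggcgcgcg
Eci1 (chr10:13961100-13961249, forward strand): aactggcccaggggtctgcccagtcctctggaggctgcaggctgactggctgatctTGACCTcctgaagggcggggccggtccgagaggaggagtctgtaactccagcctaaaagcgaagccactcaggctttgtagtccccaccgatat
The TATAAA of Ucp1 began 30 bases before the start and that of Cyr61 34. Searched on both strands over the whole 300 bases, TATAAA was present in 8 of 58 (13.8%) against 7.08% of promoters of the protein-coding genes tested. The other members with it were Ackr3, Apcdd1l, Cox8b, Echs1, S100a4 and Slc14a1. GGGCGG was present in 35 of 58 (60.3%) against 61.1%, CCAAT in 21 of 58 (36.2%) against 37.1%, AGGTCA in 10 of 58 (17.2%) against 11.98%, CACGTG in 8 of 58 (13.8%) against 9.07% and TGACGTCA in 3 of 58 (5.17%) against 2.97%. TTATGTAA was in 0 of 58 against 0.471%. Over all 27457 promoters, of tested genes or not, TATAAA was in 14.3%, GGGCGG in 34.9%, CCAAT in 37.7% and AGGTCA in 15.7%. CACGTG was in 6.65% of them, TGACGTCA in 1.91% and TTATGTAA in 0.881%. A match of letters is a description and not a site.

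Het and Homo libraries took no part in the choice of members, so their group means are an independent check. The spread used in the tests below also drew on the WT libraries. By group mean, PND15 was the highest of the 4 ages for 55 members in Het and 41 in Homo, and PND21 was the highest for 8 and 27. The median ratio of PND15 over PND0 was 1.56 in Het and 1.66 in Homo, and that over PND21 was 1.43 and 1.31, each below the WT median, which the rule itself had raised. The full rule, applied to the means of each genotype, was met by 23 members in Het and 21 in Homo, 9 of them in both and 61 in neither. These were 24.0% of members and 39.0% of the 59 genes that met it in Het, and 21.9% of members and 30.4% of the 69 that met it in Homo. Over all protein-coding genes with a PND15 mean of at least 5 FPKM, 0.59% met it in Het and 0.676% in Homo. Without the 4 libraries left out as an alternative, 26 members met it in Het and 18 in Homo.

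Ages were compared within Het and within Homo with limma on log2(FPKM + 1), adjusted over the 16283 genes tested. Differences are on that scale, which understates the change of low genes. In Het, 37 of 96 members were higher at PND15 than at PND0 and 1 lower, where 19.8% and 19.6% of all genes tested were. In Homo these were 41 and 1, against 19.6% and 17.5%. Between PND15 and PND21, 19 members were higher at PND15 in Het and 1 lower, against 7.28% and 11.4%, and 22 were higher in Homo and 1 lower, against 5.39% and 7.3%. The members' median difference from PND21 was 0.32 in Het and 0.35 in Homo, where the median over all genes was -0.0056 and -0.0113. Against PND5 the share of members that were higher was close to the background in Het and above it in Homo. There 16 were higher and 6 lower in Het, against 17.2% and 16.7%, and 21 and 4 in Homo, against 14.5% and 12.5%. 28 members were above PND0 and 8 above PND21 in both genotypes, against 10.8% and 1.96% of all genes. Without the 4 libraries that stood apart, 37, 19 and 31 members were higher at PND15 than at PND0, PND5 and PND21 in Het, and 37, 26 and 28 in Homo. The shares over all genes in that fit are not given here, so these counts cannot be set against a background.

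The scaling of the values bears on these counts. The deposited FPKM carry size factors that hold the median of all genes level between libraries. With TPM the median difference of all genes from PND21 moved by 0.203 in Het and 0.125 in Homo, and with FPKM per total reads by 0.126 and 0.0796. With TPM, 35 members were higher at PND15 than at PND21 in Het and 29 in Homo, but so were 26.7% and 10.9% of all genes. Of the calls over all genes against PND21, the share that was higher at PND15 went from 39.0% to 90.6% in Het and from 42.5% to 72.7% in Homo. Against PND0 in Het it went the other way, from 50.2% to 34.6%. With TPM 29 members were higher there, against 13.3% of all genes tested. Between Homo and Het the share that was higher in Homo went from 52.7% to 78.6% at PND15 and from 49.9% to 78.7% at PND21. No called difference of a member changed sign under any scaling tried.

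11 members were higher at PND15 than at both PND0 and PND21 in Het, among them Nrep, Eci1, Slc31a2, Pdgfa, Entpd2, Apcdd1l, Tmtc4, Papln and Nptx2. In Homo 11 were, among them Nrep, Ackr3, Alx1, Nefl, Scx, Clec2l, Atoh8, Kcnip1, Adamts17 and Nptx2. Over all genes, 0.553% and 0.841% were. Nrep and Nptx2 were in both sets. PND5 took no part in these counts. Of the Het set, 4 were also higher at PND15 than at PND5 and 1, Nrep, was lower. Of the Homo set, 2, Clec2l and Nptx2, were higher and 1, Nefl, was lower. The ratio of the PND15 mean to the PND5 mean was 0.743 for Nrep and 0.791 for Pdgfa in Het, and 0.493 for Nefl in Homo. Every PND15 library lay above every PND0 and PND21 library for 2 members in Het and 17 in Homo, against 0.669% and 1.46% of all genes tested. Leaving out PND15_Het replicate 2 raised the number above PND21 in Het from 19 to 28, and leaving out PND15_Het replicate 4 lowered it to 11. In Homo the number above PND21 was 14 without PND15_Homo replicate 4 and 14 without PND21_Homo replicate 1. For PND15 against PND5 in Homo, 13 were higher without PND5_Homo replicate 4. Shares over all genes in these fits that left out 1 library are not given here.

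By what their genes are known for, the members fell into groups that were made after their values were seen, and these groups carry no test. Their counts, given for Het and then Homo, stand beside shares over all genes of 19.8% and 19.6% higher than at PND0, 17.2% and 14.5% higher than at PND5, and 7.28% and 5.39% higher than at PND21. Among 17 members of matrix and mesenchyme, 8 and 11 rose from PND0 to PND15, and 4 and 6 of 17 were higher at PND15 than at PND21. Against PND5, 0 and 5 of these were higher at PND15 and 2 and 3 lower, with a median difference of -0.20 in Het and 0.41 in Homo. Among signalling and transcription genes, 9 and 10 rose from PND0, 2 and 5 were higher than at PND5 with 1 and 0 lower, and 4 and 4 of 13 were higher than at PND21. For genes named from neurons these counts were 4 and 5 from PND0, 2 and 2 with 2 and 1 lower against PND5, and 3 and 5 of 5 against PND21. For genes of ketone and fatty acid use they were 4 and 1 from PND0, 1 and 0 with 0 and 0 lower against PND5, and 3 and 1 of 6 against PND21. Among 12 genes of urea transport, pelvis and medulla, 1 and 1 rose from PND0 by call, a share below that of all genes. By sign, 10 and 10 of the 12 were higher at PND15, with median differences of 0.40 and 0.44. Against PND5, 3 and 1 were higher with 0 and 0 lower, and against PND21 1 and 2 of 12 were higher.

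**Figure D1:**
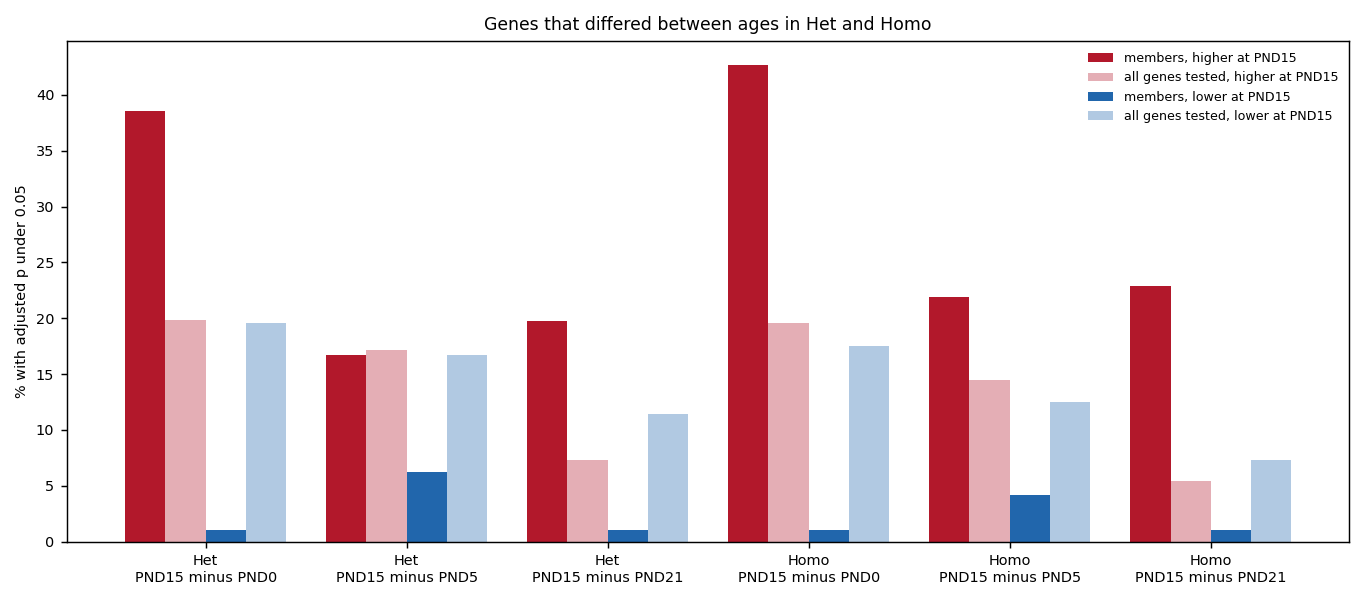
Share of genes with a limma adjusted p under 0.05 (vertical axis, %) in each comparison of ages within Het and within Homo (horizontal axis). Dark bars are the 96 members and pale bars all 16283 genes tested, red for higher and blue for lower at PND15. Against PND0 and PND21 the red member bars stand above the pale ones, and against PND5 in Het they do not.

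**Figure D2:**
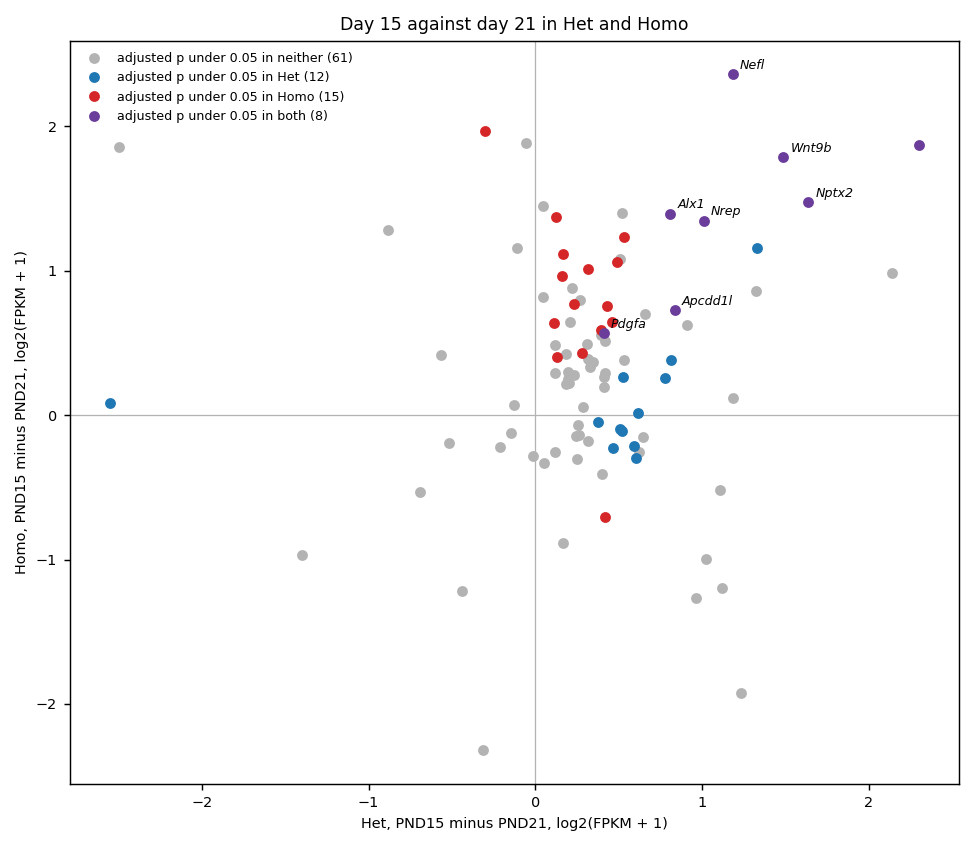
Difference between PND15 and PND21 in Het (horizontal) and in Homo (vertical), in log2(FPKM + 1), 1 point per member. Colours show in which genotype the limma adjusted p was under 0.05. The 8 members that passed in both lie in the upper right, most of them named, and the single blue point at the far left is LOC100911186.

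Eci1, an isomerase that lets unsaturated fatty acids enter mitochondrial oxidation, was a member of fatty acid use whose mean was highest at day 15 in Het and in Homo. It stood at 82.2, 59.1, 67.1 and 145 FPKM in PND0_WT, 184, 207, 168 and 151 in PND15_WT and 116, 119.9 and 91.3 in PND21_WT. At PND15 it was 208, 118, 172 and 200.03 FPKM in Het and 112, 127, 107 and 130.4 in Homo, so the Homo libraries lay below every WT library. In Het Eci1 was higher at PND15 than at PND0 by 0.93 ± 0.21 (SE, limma adjusted p = 0.000602), and than at PND21 by 0.78 ± 0.20 (SE, limma adjusted p = 0.00523). In Homo the differences were 0.27 ± 0.20 (SE, limma adjusted p = 0.296) and 0.26 ± 0.21 (SE, limma adjusted p = 0.507), neither of which passed. Slc25a25, a mitochondrial carrier of adenine nucleotides, rose from PND0 to PND15 in Het (1.16, adjusted p = 0.0210), a call lost without each of PND0_Het replicates 1 and 2 and PND15_Het replicate 4 in turn (adjusted p from 0.0536 to 0.101) and in the fits with no libraries of other groups, voom and the 3 PND0 libraries left out (adjusted p from 0.0642 to 0.108). Pfkfb3, which makes the activator of glycolysis fructose 2,6-bisphosphate, rose in Het by 0.79 (limma adjusted p = 0.0176) and in Homo by 0.85 (limma adjusted p = 0.00638). The Het call was lost without each of PND0_Het replicate 2 and PND15_Het replicate 2 in turn (adjusted p from 0.0612 to 0.109) and in the fits with array weights, no libraries of other groups, voom, the 4 libraries left out and the 3 PND0 libraries left out (adjusted p from 0.0546 to 0.208), and the Homo call in the fits with the 4 libraries left out and the 3 PND0 libraries left out (adjusted p from 0.0561 to 0.0850). In a list of 30 tested genes of fatty acid oxidation and ketone metabolism, 20 rose and 2 fell from PND0 to PND15 in Het. Over all genes 19.8% rose and 19.6% fell. The summed level of its genes that are no members was 1643 to 1957 FPKM in PND0_Het and 2882 to 3365 in PND15_Het. In Homo it was 1809 to 2010 FPKM at PND0 and 1820 to 2435 at PND15. Compared with PND21, 5 of the 30 were higher and 4 lower at PND15 in Het, against 7.28% and 11.4% of all genes. In Homo 5 and 3 were, against 5.39% and 7.3%. In Homo against Het at PND15, 19 of the 30 were lower and 2 higher, with a median difference of -0.54 where that of all genes was 0.01. Over all genes 11.6% were lower and 12.9% higher.

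Several members are better known from neurons. Nrep, a small protein first described in regenerating neurons and also found in mesenchyme, stood at 421, 390.1, 469 and 523 FPKM in PND0_WT, 841, 937 and 827 in PND5_WT, 809, 815, 949 and 847 in PND15_WT and 375, 307 and 279 in PND21_WT. Its high level thus covered PND5 and PND15. At PND15 the Het libraries were at 666, 235, 854 and 815 FPKM and the Homo libraries at 718, 687, 667 and 754, and at PND21 at 302, 256, 311 and 274 and 249.1, 285 and 299.9. Apart from PND15_Het replicate 2, the PND15 and PND21 libraries did not overlap in Het or in Homo. Nrep was higher at PND15 than at PND21 by 1.01 ± 0.22 (SE, limma adjusted p = 0.00152) in Het and 1.35 ± 0.24 (SE, limma adjusted p = 0.000151) in Homo. Against PND0 it was higher by 0.73 ± 0.22 (SE, limma adjusted p = 0.00949) in Homo and by 0.70 ± 0.24 (SE, limma adjusted p = 0.0193) in Het, where the call was lost without each of PND0_Het replicate 2 and PND15_Het replicates 1, 3 and 4 in turn (adjusted p from 0.0545 to 0.169) and in the fits with FPKM per total reads, TPM, no libraries of other groups, voom and the 3 PND0 libraries left out (adjusted p from 0.0710 to 0.294). The Homo call was lost in the fit with the 3 PND0 libraries left out (adjusted p = 0.198), and the Het call against PND21 in the fit with no libraries of other groups (adjusted p = 0.113). In Het it was lower at PND15 than at PND5 (-0.59, limma adjusted p = 0.0391), a call lost without each of PND15_Het replicate 2 and PND5_Het replicates 1, 2, 3 and 4 in turn (adjusted p from 0.0563 to 0.471) and in the fits with array weights, no filter, no libraries of other groups and the 4 libraries left out (adjusted p from 0.0598 to 0.270); without PND15_Het replicate 2 the difference was -0.16.

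Nptx2, a secreted pentraxin, was at 9.14, 10.7, 8.68 and 8.35 FPKM in PND15_WT, and no library of PND0_WT or PND21_WT was above 4.10. In PND15_Het it was at 12.4, 5.46, 9.07 and 11.2 FPKM and in PND15_Homo at 9.95, 5.06, 3.49 and 9.43. It was higher at PND15 than at PND21 by 1.64 ± 0.25 (SE, limma adjusted p = 1.9e-05) in Het and 1.47 ± 0.27 (SE, limma adjusted p = 0.000187) in Homo, and than at PND0 by 1.72 ± 0.27 (SE, limma adjusted p = 2.89e-06) and 1.13 ± 0.25 (SE, limma adjusted p = 0.000397). These 4 calls were kept in every fit that left out 1 library. Nefl, the light neurofilament subunit, was at 47.7, 48.0 and 41.7 FPKM in PND5_WT and 22.4, 23.5, 24.6 and 24.6 in PND15_WT, so its highest age was PND5. Nefl was higher at PND15 than at PND21 by 2.36 ± 0.38 (SE, limma adjusted p = 4.63e-05) in Homo, where it went from 20.9, 25.4, 21.7 and 19.2 FPKM to 2.22, 3.70 and 4.73. In Het the difference was 1.19 ± 0.36 (SE, limma adjusted p = 0.0175), lost without each of PND15_Het replicates 1, 3 and 4 and PND21_Het replicate 2 in turn (adjusted p from 0.0509 to 0.0846) and in the fit with no libraries of other groups (adjusted p = 0.126). Kcnip1, a calcium-binding partner of potassium channels, and Clec2l, a lectin, rose from PND0 to PND15 in Het (1.13 and 0.91) and in Homo (0.87 and 1.10), with limma adjusted p of at most 0.00176. Against PND21 both were higher in Homo, by 0.59 and 1.12 (limma adjusted p = 0.0266 and 0.000852). For Kcnip1 that call was lost without each of PND15_Homo replicates 2 and 4 and PND21_Homo replicates 1 and 3 in turn (adjusted p from 0.0514 to 0.124).

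**Figure D3:**
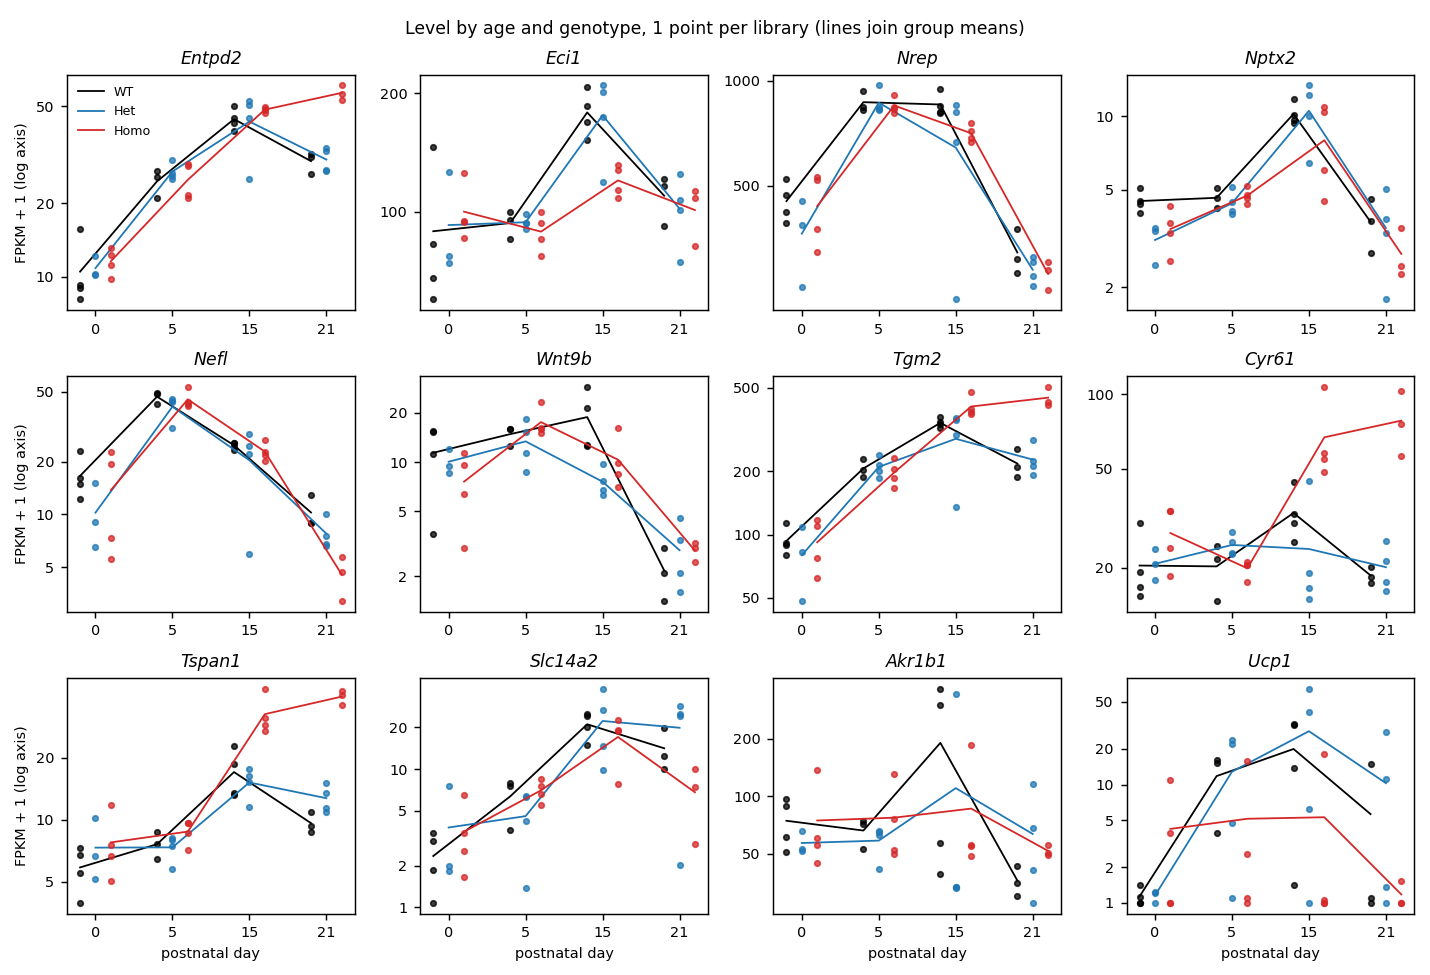
Level of 12 members (FPKM + 1, log axis) at postnatal days 0, 5, 15 and 21, 1 point per library, with WT in black, Het in blue and Homo in red, and lines joining group means. The ages are drawn at equal spacing. Eci1 and Nptx2 are high at day 15 in each genotype by mean, Tgm2, Cyr61 and Tspan1 stay high at day 21 in Homo, and Akr1b1 and Ucp1 differ widely between libraries of 1 group.

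Among signalling genes, Wnt9b, the collecting duct ligand that induces nephron progenitors, was at 11.6, 11.5, 27.8 and 20.4 FPKM in PND15_WT and 1.99, 0.407 and 1.10 in PND21_WT. The Het libraries were at 8.72, 6.60, 5.26 and 5.73 FPKM at PND15 and 0.599, 3.51, 2.32 and 1.10 at PND21, and the Homo libraries at 7.40, 8.86, 6.02 and 15.1 and 2.18, 1.97 and 1.46. The 2 ages did not overlap in Het or in Homo, and Wnt9b was higher at PND15 by 1.49 ± 0.39 (SE, limma adjusted p = 0.00674) in Het and 1.79 ± 0.42 (SE, limma adjusted p = 0.00326) in Homo, calls kept in every fit that left out 1 library. Against PND0 the difference was -0.41 ± 0.42 (SE, limma adjusted p = 0.472) in Het and 0.54 ± 0.39 (SE, limma adjusted p = 0.292) in Homo, neither of which passed. By mean, Wnt9b was highest at PND5 in both, at 12.4 FPKM in Het and 16.6 in Homo, against 6.58 and 9.34 at PND15. Of the 21 nephron progenitor and ureteric tip genes tested, which include Wnt9b, 18 fell from PND0 to PND15 in Het, against 19.6% of all genes. The summed level of the list without members was 388 to 402 FPKM in PND0_Het and 209 to 261 in PND15_Het. In Homo it was 354 to 405 FPKM at PND0 and 218 to 235 at PND15. Between PND15 and PND21, 6 of the 21 were higher at PND15 in Het and 5 in Homo, against 7.28% and 5.39% of all genes. Pdgfa, a ligand for stromal PDGF receptors, was at 45.9, 45.4, 51.9 and 45.5 FPKM in PND15_WT, 43.96, 38.0, 34.1 and 43.6 in PND15_Het and 26.7, 34.0, 27.6 and 37.3 in PND15_Homo. It was higher at PND15 than at PND21 by 0.41 ± 0.13 (SE, limma adjusted p = 0.0262) in Het and 0.57 ± 0.14 (SE, limma adjusted p = 0.00560) in Homo; the Het call was lost without each of PND15_Het replicates 1 and 4 and PND21_Het replicates 1 and 4 in turn (adjusted p from 0.0542 to 0.124) and in the fit with no libraries of other groups (adjusted p = 0.0877), and the Homo call without PND21_Homo replicate 3 (adjusted p = 0.0510).

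Dusp2, a phosphatase of MAP kinases, was at 21.9, 13.6, 25.7 and 33.3 FPKM in PND15_WT and 3.21, 2.26 and 3.71 in PND21_WT, and higher at PND15 than at PND21 in Het by 1.33 ± 0.38 (SE, limma adjusted p = 0.0135), lost without each of PND15_Het replicates 3 and 4 in turn (adjusted p from 0.0589 to 0.0688) and in the fits with no libraries of other groups and voom (adjusted p from 0.0597 to 0.0706). By mean, Dusp2 was highest at PND5 in Het and in Homo. It stood at 17.0, 23.6 and 11.4 FPKM at PND0, PND5 and PND15 in Het, and at 9.99, 27.4 and 15.7 in Homo. Bcl6, a transcriptional repressor, Celsr2, a planar polarity cadherin, and Pou2af1, a transcriptional coactivator, rose from PND0 to PND15 in Het by 1.13, 1.12 and 1.24, and in Homo by 1.39, 1.01 and 1.23. Their differences between PND15 and PND21 were -0.21, 0.34 and 0.42 in Het and did not pass. The limma adjusted p against PND0 was at most 0.0164, and the Het call of Bcl6 was lost without each of PND0_Het replicate 1 and PND15_Het replicate 2 in turn (adjusted p from 0.103 to 0.136) and in the fits with array weights, no libraries of other groups and voom (adjusted p from 0.0602 to 0.106). Entpd2, an ectoenzyme that breaks down ATP, was at 43.9, 49.1, 38.7 and 41.6 FPKM in PND15_WT, and 51.5, 24.1, 43.9 and 49.8 in PND15_Het and 48.9, 47.3, 46.2 and 47.6 in PND15_Homo. It rose from PND0 by 1.95 ± 0.18 (SE, limma adjusted p = 1.03e-10) in Het and 2.08 ± 0.17 (SE, limma adjusted p = 3.91e-12) in Homo. Asgr1, a subunit of the asialoglycoprotein receptor best known from liver, rose by 2.92 ± 0.27 (SE, limma adjusted p = 1.37e-10) in Het and 2.19 ± 0.25 (SE, limma adjusted p = 1.43e-08) in Homo, and its levels in PND15_WT were 20.9, 20.1, 25.4 and 18.3 FPKM. Over the 12 liver marker genes tested, 2 rose and 1 fell from PND0 to PND15 in Het, and their summed level was 157 to 175 FPKM at PND0 and 41.4 to 89.8 at PND15. Among all genes 19.8% rose and 19.6% fell in Het. In Homo the liver sum was 173 to 194 FPKM at PND0 and 44.4 to 58.6 at PND15.

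Homo and Het were compared at each age. At PND0 and PND5 limma called 0 members between Homo and Het, with 2 at an unadjusted p under 0.05 at each age and 0 by voom on the recovered reads. Over all genes, 0% were higher and 0.00614% lower in Homo at PND0, and 0% and 0% at PND5. At PND15 12 members were higher in Homo and 2 lower, against 12.9% and 11.6% of all genes, so the share that was higher was close to the background. At PND21 23 were higher and 11 lower, against 20.4% and 20.5%. The count at PND15 was 6 in all without PND15_Homo replicate 1 and 9 without PND15_Homo replicate 3. 11 members were higher in Homo at both ages: Tgm2, Pmepa1, Plod2, Ctsk, Cyr61, Bmf, Tspan1, Tmem119, Prrx1, P2ry2 and RGD1311892. Over all genes 10.9% were, so the members' share was close to the background. Tmem45b was lower at both, as were 9.76% of all genes. The Xdh levels of the libraries labelled Het and Homo overlapped at PND21, so they do not check the labels behind the differences at that age.

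Cyr61, a matricellular protein made under stretch and injury, stood at 32.0, 29.2, 43.2 and 24.4 FPKM in PND15_WT, 18.1, 13.9, 15.5 and 43.5 in PND15_Het and 106, 56.7, 54.0 and 47.5 in PND15_Homo. At PND21 it was 16.3, 17.4 and 19.1 FPKM in WT, 16.4, 24.6, 20.2 and 15.1 in Het and 74.6, 55.2 and 102 in Homo. In WT the level was back in its PND0 range at PND21, and in Homo the PND21 libraries were as high as those of PND15. Homo minus Het was 1.57 ± 0.27 (SE, limma adjusted p = 3.45e-05) at PND15 and 1.94 ± 0.29 (SE, limma adjusted p = 1.19e-06) at PND21. Tspan1, a tetraspanin of epithelial membranes, was at 12.2, 12.5, 21.9 and 17.6 FPKM in PND15_WT, 14.3, 16.6, 15.3 and 10.52 in PND15_Het and 42.3, 28.0, 30.3 and 25.9 in PND15_Homo, and at PND21 at 10.4, 14.1, 12.5 and 9.84 in Het and 41.5, 39.6 and 35.04 in Homo. Homo and Het libraries did not overlap at either age, and the differences were 1.10 ± 0.22 (SE, limma adjusted p = 0.000235) and 1.65 ± 0.24 (SE, limma adjusted p = 5.07e-07). Tgm2, a transglutaminase that crosslinks matrix proteins, was at 342, 319.6, 361 and 335 FPKM in PND15_WT, 296, 135, 357 and 351 in PND15_Het and 474, 382, 393 and 375 in PND15_Homo. At PND21 it stood at 208, 188 and 254 FPKM in WT, 212, 224, 279.9 and 190.4 in Het and 503, 428 and 411 in Homo, where Homo lay above every library of the other genotypes. Homo minus Het was 0.99 ± 0.24 (SE, limma adjusted p = 0.000951) at PND21. At PND15 it was 0.60 ± 0.22 (SE, limma adjusted p = 0.0429), lost without each of PND15_Het replicates 1 and 2 and PND15_Homo replicates 1, 2 and 3 in turn (adjusted p from 0.0503 to 0.357) and in the fits with array weights, no filter, no libraries of other groups and the 4 libraries left out (adjusted p from 0.0640 to 0.188). Tgm2 also rose from PND0 to PND15 by 1.82 ± 0.24 (SE, limma adjusted p = 1.46e-07) in Het and 2.19 ± 0.22 (SE, limma adjusted p = 7.5e-10) in Homo.

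P2ry2, a receptor for extracellular ATP and UTP, was at 4.81, 6.27, 7.21 and 6.55 FPKM in PND15_WT, 4.79, 6.30, 4.14 and 4.86 in PND15_Het and 10.2, 8.99, 9.48 and 6.40 in PND15_Homo, and at PND21 at 3.21, 2.80 and 2.99 in WT, 2.66, 3.93, 4.18 and 3.27 in Het and 20.4, 14.5 and 10.6 in Homo. It was the 1 member lower at PND15 than at PND21 in Homo (-0.70 ± 0.22 SE, limma adjusted p = 0.0313), a call lost without each of PND15_Homo replicate 4 and PND21_Homo replicates 1 and 2 in turn (adjusted p from 0.0745 to 0.259) and in the fits with FPKM per total reads, TPM, no libraries of other groups and a pseudocount of 0.1 (adjusted p from 0.0611 to 0.102). Pmepa1, which restrains TGF-beta signalling, Plod2, a lysyl hydroxylase of collagen, Ctsk, the protease cathepsin K, Prrx1, a mesenchymal transcription factor, and Tmem119, a membrane protein of bone-forming cells, were higher in Homo at PND15 by 0.72, 0.64, 0.46, 0.63 and 0.95. At PND21 the differences were 0.87, 0.90, 1.09, 1.13 and 0.94. The highest limma adjusted p among these 10 was 0.0317. Among these 5, Plod2 passed at both ages in every fit that left out 1 library. Without PND21_Homo replicate 1 the PND21 calls of Pmepa1 and Tmem119 were lost (adjusted p = 0.104 and 0.108). The PND15 call of Prrx1 was lost without each of PND15_Het replicates 1 and 2 and PND15_Homo replicates 1, 2 and 3 in turn (adjusted p from 0.0520 to 0.294) and in the fits with array weights, no libraries of other groups and the 4 libraries left out (adjusted p from 0.181 to 0.268). That of Pmepa1 was lost without each of PND15_Het replicate 2 and PND15_Homo replicates 1 and 3 in turn (adjusted p from 0.0649 to 0.247) and in the fits with array weights, no libraries of other groups and the 4 libraries left out (adjusted p from 0.0526 to 0.138). That of Tmem119 was lost without each of PND15_Het replicate 2 and PND15_Homo replicates 1 and 3 in turn (adjusted p from 0.0589 to 0.179) and in the fit with no libraries of other groups (adjusted p = 0.0856). The PND15 call of Ctsk was lost without PND15_Het replicate 2 (adjusted p = 0.0564). Bmf, a protein that promotes cell death, was at 17.6, 16.2, 20.1 and 25.5 FPKM in PND15_Het and 35.3, 33.4, 38.2 and 32.1 in PND15_Homo, a difference of 0.80 ± 0.15 (SE, limma adjusted p = 0.000166).

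Genes of other lists also differed between Homo and Het, where 12.9% of all genes were higher in Homo at PND15 and 20.4% at PND21. Of 23 interstitial and matrix genes tested, 13 were higher in Homo at PND15, and 17 at PND21. Their summed level was 1985 to 4103 FPKM in PND15_Het and 3517 to 4811 in PND15_Homo. The lowest value was that of PND15_Het replicate 2, which stood apart, and the next was 2913 in replicate 1, so the groups overlapped. Of 26 tubular injury genes, 25 were higher at each age, with summed levels of 1663 to 1982 FPKM in PND15_Het and 4486 to 10699 in PND15_Homo. Of 21 macrophage and dendritic cell genes, 20 were higher at PND15 and 21 at PND21, with sums of 231 to 383 and 409 to 1145 FPKM at PND15. Not every list was higher in Homo: the proximal tubule genes summed to 6201 to 6825 FPKM in PND15_Het and 3316 to 4806 in PND15_Homo. The part of these lists in the members' differences was not tested.

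**Figure D4:**
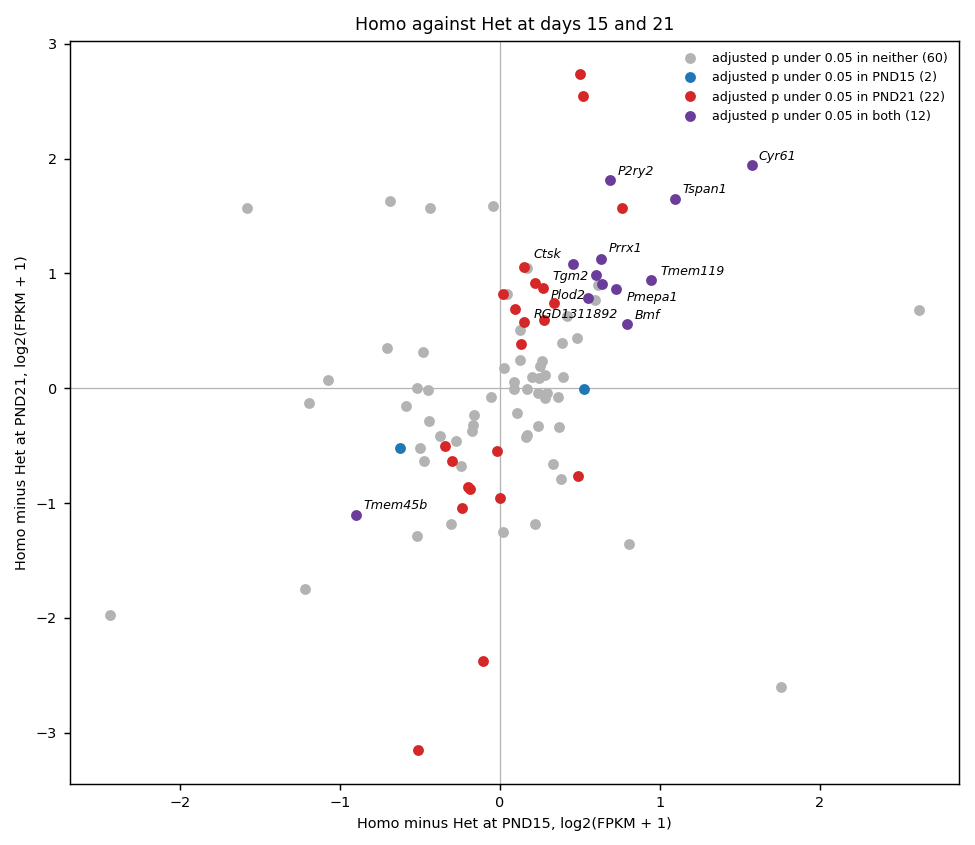
Homo minus Het at PND15 (horizontal) and at PND21 (vertical), in log2(FPKM + 1), 1 point per member, coloured by the age at which the limma adjusted p was under 0.05. The 12 named members passed at both ages, 11 of them in the upper right with Cyr61 farthest out and Tmem45b in the lower left.

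Whether the course itself differed between Homo and Het was tested as an interaction. For the change from PND0 to PND15, 5 members rose more in Homo and 0 less, against 5.34% and 5.84% of all genes tested, a share near the background. By library left out, the count was 1 without PND0_Het replicate 3, PND15_Homo replicate 1 or PND15_Homo replicate 3, 2 without PND0_Homo replicate 2 or 4, and 3 without PND15_Het replicate 3 or 4. The 5 were Cyr61 (1.20 ± 0.39 SE, limma adjusted p = 0.0433), Tspan1 (1.02 ± 0.32 SE, limma adjusted p = 0.0327), Bmf (1.0003 ± 0.23 SE, limma adjusted p = 0.00287), Scx, a tendon transcription factor (0.81 ± 0.27 SE, limma adjusted p = 0.0423), and RGD1311892 (0.74 ± 0.23 SE, limma adjusted p = 0.0283). Bmf passed in every fit that left out 1 library, and was lost in the fit with the 4 libraries left out (adjusted p = 0.0903). Tspan1 was lost without each of PND0_Het replicate 3, PND0_Homo replicates 2 and 4, PND15_Het replicate 4 and PND15_Homo replicates 1 and 3 in turn (adjusted p from 0.0534 to 0.166) and in the fits with no filter, no libraries of other groups and a pseudocount of 0.1 (adjusted p from 0.0507 to 0.150). Cyr61 was lost without each of PND0_Het replicates 2 and 3, PND0_Homo replicates 1 and 2, PND15_Het replicates 1, 2 and 3 and PND15_Homo replicates 1 and 3 in turn (adjusted p from 0.0534 to 0.140) and in the fits with array weights, no filter, no libraries of other groups and the 4 libraries left out (adjusted p from 0.0644 to 0.193). RGD1311892 was lost without each of PND0_Het replicate 3, PND0_Homo replicate 4, PND15_Het replicate 2 and PND15_Homo replicates 1 and 3 in turn (adjusted p from 0.0691 to 0.171) and in the fits with array weights, no libraries of other groups, the 4 libraries left out and the 3 PND0 libraries left out (adjusted p from 0.0936 to 0.171), and Scx without each of PND0_Het replicates 1 and 3, PND0_Homo replicates 2, 3 and 4, PND15_Het replicates 2, 3 and 4 and PND15_Homo replicates 1, 2, 3 and 4 in turn (adjusted p from 0.0508 to 0.141) and in the fits with array weights, no filter, no libraries of other groups and the 4 libraries left out (adjusted p from 0.0657 to 0.0732). For the change from PND21 to PND15, 1 member passed in each direction, against 1.4% and 1.76%. Atoh8, a transcription factor of the atonal family, stood higher at PND15 relative to PND21 in Homo (1.25 ± 0.31 SE, limma adjusted p = 0.0165), lost without PND21_Homo replicate 1 (adjusted p = 0.1003) and in the fits with TPM, no libraries of other groups and voom (adjusted p from 0.0611 to 0.0832). P2ry2 stood lower (-1.12 ± 0.30 SE, limma adjusted p = 0.0320), lost without each of PND15_Het replicate 2, PND15_Homo replicates 2 and 4, PND21_Het replicates 1 and 4 and PND21_Homo replicates 1 and 2 in turn (adjusted p from 0.0504 to 0.159) and in the fits with no libraries of other groups and a pseudocount of 0.1 (adjusted p from 0.0662 to 0.0693). Without PND15_Het replicate 2, 6 members passed, and without PND15_Homo replicate 3, 4. The count was 1 without PND15_Homo replicate 2, PND15_Homo replicate 4 or PND21_Het replicate 4. None passed without PND21_Homo replicate 1.

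Slc14a1 and Slc14a2 encode the urea transporters of the kidney and lie beside each other, at chromosome 18, 74461055 to 74485139 and chromosome 18, 74508069 to 74542077 in the deposited table, for which no genome build was named. Slc14a2 was at 2.00, 0.863, 0.0803 and 2.47 FPKM in PND0_WT, 13.9, 19.3, 23.9 and 23.2 in PND15_WT and 18.9, 9.07 and 11.5 in PND21_WT. At PND15 it was at 25.5, 37.0, 8.93 and 13.6 FPKM in Het and 17.8, 18.1, 6.76 and 21.6 in Homo. Its rise from PND0 passed in both, at 2.70 ± 0.68 (SE, limma adjusted p = 0.00176) and 2.35 ± 0.63 (SE, limma adjusted p = 0.00338), and its difference from PND21 passed in neither, at 0.52 and 1.40. Slc14a1 was at 11.6, 11.7, 26.2 and 20.2 FPKM in PND15_WT and, at PND21, at 15.3, 6.33 and 11.3 in WT, 4.70, 18.8, 17.0 and 15.1 in Het and 1.16, 1.44 and 2.33 in Homo. In Homo it was higher at PND15 than at PND21 by 1.97 ± 0.51 (SE, limma adjusted p = 0.00770), a call lost in the fit with voom (adjusted p = 0.0554). At PND21 it was lower in Homo than in Het, Homo minus Het being -2.37 ± 0.51 (SE, limma adjusted p = 0.000279), with no overlap between the libraries.

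Akr1b1, the aldose reductase that makes the osmolyte sorbitol, was at 38.3, 56.2, 365 and 299.9 FPKM in PND15_WT. Replicates 3 and 4 were far above replicates 1 and 2, which lay within the PND0_WT range or below it. In PND15_Het it was at 32.6, 341, 32.4 and 32.0 FPKM and in PND15_Homo at 54.5, 54.0, 47.6 and 185, again with 1 library far above the rest. The same libraries were high in Psca, a surface protein of urothelium, at 4.78, 9.98, 62.3 and 37.2 FPKM in WT, 2.34, 70.8, 0.698 and 2.74 in Het and 8.51, 7.40, 2.66 and 47.5 in Homo. 25 members had both WT replicates 3 and 4 at least 1.5 times both replicates 1 and 2, among them Upk3bl, Ehf, S100a4, Hspa2, Slco4a1, Gpha2 and Wnt9b. Gpha2, a glycoprotein hormone subunit, was at 0, 0.476, 14.9 and 13.9 FPKM in WT, and no Het or Homo library at PND15 was above 3.79. The uroplakins Upk1a, Upk1b, Upk2 and Upk3a, which define urothelium and are no members, summed to 19.1, 11.2, 45.5 and 43.8 FPKM in PND15_WT, 7.07, 42.0, 2.17 and 6.76 in PND15_Het and 6.71, 8.48, 0.847 and 61.7 in PND15_Homo. In each group the libraries high in Psca and Akr1b1 were also the highest in uroplakins. Over the 14 tested genes of the osmotic and inner medulla list, which includes Akr1b1, Slc14a2 and these uroplakins, 3 fell and 3 rose from PND0 to PND15 in Het, and 6 fell and 3 rose in Homo. Among all genes 19.6% fell and 19.8% rose in Het, and 17.5% fell and 19.6% rose in Homo. The summed level of its genes that are no members was 114 to 187 FPKM in PND15_WT and 105 to 129 in PND21_WT. The part of such tissue in these members' course was not tested.

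**Figure D5:**
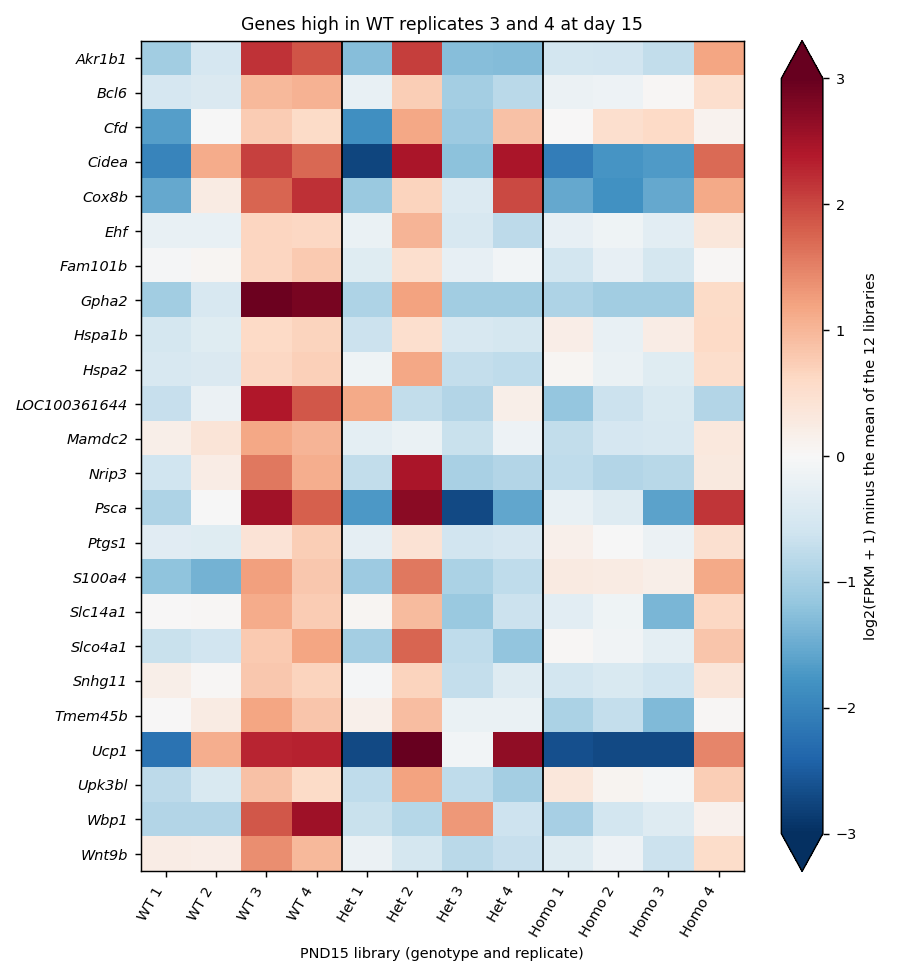
Level of 24 of the 25 members that were high in WT replicates 3 and 4, in each of the 12 PND15 libraries (columns, by genotype and replicate), as log2(FPKM + 1) minus the gene's mean over the 12 libraries. Red is above and blue below that mean. The columns of WT replicates 3 and 4, Het replicate 2 and Homo replicate 4 are red in most rows, and Ucp1, Cidea and Cox8b are also red in Het replicate 4.

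A further set of members is known from brown fat, though not every gene of the fat list was present. Ucp1, which makes its mitochondria release heat, was at 0.415, 12.9, 30.8 and 31.7 FPKM in PND15_WT, 0, 63.4, 5.21 and 40.3 in PND15_Het and 0.0578, 0, 0 and 17.1 in PND15_Homo. Cidea, a lipid droplet protein, was at 1.56, 21.0, 41.0 and 32.2 FPKM, 0.493, 54.1, 3.30 and 54.0 and 1.39, 1.95, 2.10 and 31.5 in the same groups, and Cox8b, a cytochrome oxidase subunit of heart and brown fat, at 0.223, 3.20, 10.8 and 15.2, 0.633, 4.66, 1.65 and 12.9 and 0.217, 0, 0.224 and 6.77. WT replicate 1, Het replicate 1 and Homo replicates 1, 2 and 3 were near 0 for Ucp1, and the others were not. Cfd, a further member of this set, took another course in Homo. Its means there were 3.36 FPKM at PND5, 13.0 at PND15 and 26.8 at PND21, against 4.45 in PND21_Het. By limma call Cfd was higher in Homo at PND15 than at PND5, and higher in Homo than in Het at PND21. From PND15 to PND21 Ucp1 differed by 1.33 ± 1.27 (SE, limma adjusted p = 0.518) in Het and 0.86 ± 1.38 (SE, limma adjusted p = 0.769) in Homo. Of these members and Cfd (adipsin), Cox8b rose from PND0 in Het (2.10, limma adjusted p = 0.0203), lost without each of PND0_Het replicate 3 and PND15_Het replicate 4 in turn (adjusted p from 0.0518 to 0.102) and in the fits with array weights, no libraries of other groups, the 4 libraries left out and the 3 PND0 libraries left out (adjusted p from 0.0520 to 0.0984). The 11 other fat genes of the list, leaving out Pck1, which proximal tubules express at a high level, summed to 41.4, 118, 231 and 207 FPKM in PND15_WT, 38.9, 369.7, 53.0 and 297 in PND15_Het and 28.8, 43.0, 28.8 and 149 in PND15_Homo. In each genotype the libraries highest in Ucp1 were also the highest in this sum. Fabp4, a fatty acid binding protein of fat and endothelium, was at 21.5, 74.7, 156 and 130.1 FPKM in PND15_WT. Elovl3, another gene of the fat list, did not go with it and was at 0 in all 4. The sum was 32.1 to 83.3 FPKM in PND0_WT and 60.1 to 379.7 in PND21_WT. The part of adhering fat in these members' course was not tested.

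For 14 members the highest of the 44 libraries was at least 10 times the median. Mif, a cytokine gene at chromosome 20, 13732198 to 13732859 in the deposited table, was at 3.88, 5.44, 287 and 6.30 FPKM in PND15_WT. Its other high values were 364 in PND15_Het replicate 1 and 275 in PND21_Homo replicate 3, and the median of all libraries was 8.04. LOC100910944, a gene like Romo1, was at 3.85, 3.64, 133 and 3.52 FPKM in PND15_WT, 146, 3.54, 1.25 and 162 in PND15_Het and 3.75, 3.84, 2.68 and 146 in PND15_Homo. Echs1, a hydratase of fatty acid oxidation, was at 1.38, 32.4, 1.02 and 1.24 FPKM in PND15_WT, and LOC100911186, annotated as a similar mitochondrial hydratase, at 33.9, 1.13, 13.0 and 14.7. M6pr and Atp5f1 were each high in WT replicate 2 alone, at 21.4 and 12.6 FPKM, against at most 3.30 and 3.09 in the other 3. Whether reads were split between these genes and near-identical copies was not tested, and their levels are given as uncertain. LOC100911186 was the 1 member lower at PND15 than at PND21 in Het (-2.55 ± 0.92 SE, limma adjusted p = 0.0490), lost without each of PND15_Het replicates 1, 2, 3 and 4 and PND21_Het replicates 1, 2 and 3 in turn (adjusted p from 0.0537 to 0.152) and in the fits with FPKM per total reads, TPM, array weights, no filter, a pseudocount of 0.1, voom and the 4 libraries left out (adjusted p from 0.0547 to 0.143).

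By limma call, 1 member went against the WT rise from PND0 to PND15 in Het and in Homo. Wfdc8, a small protease inhibitor, was at 5.14, 3.07, 3.55 and 5.21 FPKM in PND0_WT and 8.06, 4.49, 10.8 and 7.41 in PND15_WT, but 2.92, 3.87, 0.211 and 1.75 in PND15_Het and 1.36, 2.28, 0.701 and 6.79 in PND15_Homo. It was the 1 member that fell from PND0 to PND15, by 1.20 in Het and 1.04 in Homo (limma adjusted p = 0.0331 and 0.0489). The Het call was lost without each of PND0_Het replicates 2 and 3 and PND15_Het replicates 3 and 4 in turn (adjusted p from 0.0551 to 0.171) and in the fits with no libraries of other groups, a pseudocount of 0.1, the 4 libraries left out and the 3 PND0 libraries left out (adjusted p from 0.0656 to 0.144), and the Homo call without each of PND0_Homo replicates 2 and 3 and PND15_Homo replicates 1, 2 and 3 in turn (adjusted p from 0.0601 to 0.217) and in the fits with TPM, array weights, no filter, no libraries of other groups, a pseudocount of 0.1, voom, the 4 libraries left out and the 3 PND0 libraries left out (adjusted p from 0.0519 to 0.249). Against PND5, those lower at PND15 in Het were Nrep, Nefl, Adamts17, Dusp2, Mamdc2 and M6pr, and in Homo Nefl, Pdgfa, Egfl6 and Mamdc2. Among these, Nrep, Nefl, Dusp2 and Pdgfa also had a lower WT mean at PND15 than at PND5, and the others did not. Apcdd1l was 1 of 2 members lower in Homo than in Het at PND15 (-0.63 ± 0.22 SE, limma adjusted p = 0.0332), with 25.9, 28.8, 40.3 and 36.3 FPKM in PND15_WT, 29.6, 38.2, 18.5 and 24.1 in PND15_Het and 13.2, 19.2, 13.6 and 23.6 in PND15_Homo, a call lost without each of PND15_Het replicates 1 and 2 and PND15_Homo replicates 1 and 3 in turn (adjusted p from 0.0849 to 0.172) and in the fits with FPKM per total reads, TPM, array weights, no libraries of other groups, voom and the 4 libraries left out (adjusted p from 0.0701 to 0.126). The other was Tmem45b (-0.90 ± 0.24 SE, limma adjusted p = 0.00486), lost without PND15_Het replicate 2 (adjusted p = 0.0505) and in the fit with no libraries of other groups (adjusted p = 0.0986).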

How the data were processed

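Kidney cortex RNA was sequenced in 44 libraries, 1 per animal, in 12 groups of age and genotype given by the labels. The authors deposited FPKM per gene. Per the submitters' processing notes the tools were featureCounts 1.5.0-p3, StringTie 1.3.3b, HISAT2 2.0.5 and fastp, with no role given. The genome build and whether the libraries keep strand are not given in the sources used here. FPKM times gene length gave whole reads for 100% of values within 0.01 of a read, from 12686228 to 23329418 reads per library. The size behind each library's FPKM was 0.833 to 1.11 times its reads and equalled its median-ratio size factor times the geometric mean of the read totals, so the deposited FPKM were already scaled by such factors. Genes with at least 1 FPKM in 3 libraries (16283) were tested on log2(FPKM + 1) with limma 3.58.1 (R 4.3.3, trend and robust options), 1 mean per group, with Benjamini-Hochberg adjusted p under 0.05 over all genes as the threshold. The 12 comparisons were between Het and Homo groups only, since WT chose the members. The spread of each gene was taken over all 44 libraries, so the WT libraries entered it. In fits on only the groups compared, 63 of 225 calls of a member no longer passed. P-values measure the spread between these animals, some of which may be littermates. A few members are not reported here by name. The script was tested on simulated data. Members and gene lists were chosen with earlier results of these data known. Named genes were the most abundant members, those with the largest WT ratios, those at the thresholds, up to 4 per list, up to 8 per comparison and direction with groups that did not overlap, and those lower at PND15. Genes outside that rule were chosen after their values were seen. Alternatives changed the pseudocount, filter, scaling, model, weights, libraries and rule.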

Additional observations from a re-analysis of the deposited data

Results flagged for a closer look

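Of 144 groups of 4 libraries examined over 18 members, 21 had 1 library far from the others. Chance alone marks about 1 in 20 groups, but the number is not read against that rate, since the genes were shown with their values known and the PND0_WT and PND15_WT groups chose the members. PND5_Het replicate 3 held the highest value of its group for Nrep (971 FPKM). PND5_Het replicate 1 held the lowest value of its group for Nefl (30.0 FPKM), Akr1b1 (40.8 FPKM) and Mif (4.37 FPKM). PND5_Homo replicate 3 held the highest value of its group for Wnt9b (22.3 FPKM) and Ucp1 (14.8 FPKM) and the lowest value of its group for Cyr61 (16.4 FPKM). PND15_Het replicate 4 held the highest value of its group for Cyr61 (43.5 FPKM). PND15_Homo replicate 1 held the highest value of its group for Cyr61 (106 FPKM). PND15_Homo replicate 4 held the highest value of its group for Ucp1 (17.1 FPKM), Cidea (31.5 FPKM), Cox8b (6.77 FPKM), Akr1b1 (185 FPKM), Psca (47.5 FPKM) and Gpha2 (2.06 FPKM). PND15_Het replicate 2 held the highest value of its group for Akr1b1 (341 FPKM), Psca (70.8 FPKM) and Gpha2 (3.79 FPKM). PND21_Het replicate 1 held the lowest value of its group for Slc14a2 (1.02 FPKM). PND15_WT replicate 3 held the highest value of its group for Mif (287 FPKM). PND15_Het replicate 1 held the highest value of its group for Mif (364 FPKM). The change from PND0 to PND15 differed between Homo and Het, as Homo minus Het in log2(FPKM + 1), for Cyr61 (1.20), Bmf (1.0003), Tspan1 (1.02), Scx (0.81) and RGD1311892 (0.74). The difference between PND15 and PND21 did so for Atoh8 (1.25) and P2ry2 (-1.12). Both were tested as interaction terms with limma.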

How the results depend on the processing

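Of 225 calls of a member in a comparison, 135 were kept in every fit that left out 1 library, and in no alternative tried did a called difference change sign. Of 310 counts recomputed under an alternative, 239 stayed within 1.5 times the reported count and 71 did not. With 1 library left out, the counts ranged from 31 to 37 for Het PND15 over PND0, from 11 to 28 for Het PND15 over PND21, from 12 to 19 for Het PND15 over PND5, from 36 to 45 for Homo PND15 over PND0, from 14 to 21 for Homo PND15 over PND21, from 13 to 19 for Homo PND15 over PND5, from 0 to 0 for Homo against Het at PND0, from 6 to 18 for Homo against Het at PND15, from 25 to 37 for Homo against Het at PND21, from 0 to 0 for Homo against Het at PND5, from 1 to 6 for the PND0 course difference, from 0 to 6 for the PND21 course difference and from 67 to 109 for the members themselves. With fits on only the groups compared, the count was 22 for Het PND15 over PND0, 8 for Het PND15 over PND21, 32 for Homo PND15 over PND5, 7 for Homo against Het at PND15, 1 for the PND0 course difference and 0 for the PND21 course difference. With voom on recovered reads, the count was 24 for Het PND15 over PND0, 10 for Het PND15 over PND5 and 1 for the PND21 course difference. With a ratio of 2 in the rule, the count was 4 for Het PND15 over PND0, 1 for Het PND15 over PND5, 3 for Het PND15 over PND21, 2 for Homo PND15 over PND0, 2 for Homo PND15 over PND5, 3 for Homo PND15 over PND21, 0 for Homo against Het at PND15, 3 for Homo against Het at PND21, 0 for the PND0 course difference, 0 for the PND21 course difference and 23 for the members themselves. With the rule applied to TPM, the count was 76 for Het PND15 over PND0, 35 for Het PND15 over PND5, 74 for Homo PND15 over PND0, 46 for Homo PND15 over PND5, 32 for Homo against Het at PND15, 62 for Homo against Het at PND21, 15 for the PND0 course difference and 156 for the members themselves. With only the members kept without any 1 WT library, the count was 15 for Het PND15 over PND0, 5 for Het PND15 over PND5, 10 for Het PND15 over PND21, 15 for Homo PND15 over PND0, 7 for Homo PND15 over PND5, 10 for Homo PND15 over PND21, 4 for Homo against Het at PND15, 10 for Homo against Het at PND21, 1 for the PND0 course difference and 34 for the members themselves. With FPKM per total reads, the count was 9 for Het PND15 over PND5 and 29 for Het PND15 over PND21. With TPM, the count was 9 for Het PND15 over PND5, 35 for Het PND15 over PND21 and 9 for the PND0 course difference. With array weights, the count was 32 for Het PND15 over PND21, 3 for the PND0 course difference and 8 for the PND21 course difference. With the 4 libraries that stood apart left out, the count was 31 for Het PND15 over PND21, 2 for the PND0 course difference and 9 for the PND21 course difference. With no filter on low values, the count was 2 for the PND0 course difference. With the rule applied to FPKM per total reads, the count was 2 for the PND0 course difference. With a pseudocount of 0.1, the count was 1 for the PND21 course difference. With the 4 libraries that stood apart left out, the count for Homo PND15 over PND5 was 26. Other counts than these stayed within that limit. Shares over all genes do not stand beside these counts, so a changed count can go with a change in all genes. The cause of each change was not tested, except that a stricter rule leaves fewer members. Leaving out libraries that stood apart, the rule and the fits with FPKM per total reads, and the choice of members kept without any 1 WT library, were added after seeing the data. Dividing the FPKM by median-ratio size factors left them as they were because the deposited values already carry such factors, so its results say nothing about stability and are not counted above. No paired analysis was possible because the replicate numbers only follow the order of the samples and tie no animals together. The low levels of several members and groups of 3 or 4 animals limit what the tests can show.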
